A study of Mus musculus with 6 samples.

Results

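Mitochondrial ribosomal proteins were taken as all protein-coding genes whose mouse symbol begins with Mrpl or Mrps followed by a number. The rule found 78 of the 55471 genes in the deposited table, 49 named for the large subunit (Mrpl) and 29 for the small subunit (Mrps), on 17 chromosomes, and left out 5 pseudogenes with such symbols. All 78 members passed the filter on low counts, which left 15454 genes to be tested. The members had between 266 and 4217 expected counts in a library, and 45 of them had at least 1 value that was not whole, since RSEM, the program that made the counts, divides reads that match several genes.

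The cells were 10T1/2, an untreated mouse embryonic fibroblast line. The series compared wild-type cells (WT, 3 libraries) with cells given the genotype Ranbp2 KO (RKO, 3 libraries), which the study had made with CRISPR/Cas9, and its title concerns contact between mitochondria and nuclear pore complexes. No other allele or agent is named for either group, and the sources used here do not say whether the RKO libraries stem from 1 clone. The design text calls the libraries of a group biological replicates without describing their cultures, so p-values reflect only how far these libraries spread, which may be technical.

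The mitochondrial ribosome translates the few proteins that mitochondrial DNA encodes, all of them membrane subunits of oxidative phosphorylation. Its rRNAs come from mitochondrial DNA, whereas all its proteins are encoded in the nucleus, made in the cytosol and imported. Many of the proteins descend from those of the bacterial ribosome and others exist only in mitochondria, where the large subunit carries the peptidyl transferase centre and the small subunit decodes the mRNA.

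The 3 members with the largest differences, each lower in the RKO libraries, were Mrpl32, Mrps27 and Mrps12, and each starts head to head with a neighbouring gene. Their promoter sequences are shown because those neighbours were lower as well, as described further on. The windows hold the 250 bases before the RefSeq start (GRCm38.p6), 5′ to 3′ on the strand of the member, at chr13:14613038-14613287 (minus strand), chr13:99344536-99344785 (plus strand) and chr7:28741822-28742071 (minus strand). Capitals mark matches on either strand to GCGCATGCG, the NRF1 motif, in Mrpl32 and to CCGGAAGT, the motif of ETS factors such as GABP, in Mrps27. The window of Mrps12 matched none of the 5 motifs searched.
Mrpl32: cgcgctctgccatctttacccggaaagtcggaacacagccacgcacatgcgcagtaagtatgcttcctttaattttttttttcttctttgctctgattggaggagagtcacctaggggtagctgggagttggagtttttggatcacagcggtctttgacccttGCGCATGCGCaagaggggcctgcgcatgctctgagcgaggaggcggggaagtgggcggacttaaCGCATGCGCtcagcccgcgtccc
Mrps27: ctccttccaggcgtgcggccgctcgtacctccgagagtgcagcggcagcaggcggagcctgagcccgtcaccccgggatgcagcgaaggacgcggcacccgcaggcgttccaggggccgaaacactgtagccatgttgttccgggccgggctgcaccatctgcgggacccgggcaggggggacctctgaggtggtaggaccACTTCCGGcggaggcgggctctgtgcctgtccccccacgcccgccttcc
Mrps12: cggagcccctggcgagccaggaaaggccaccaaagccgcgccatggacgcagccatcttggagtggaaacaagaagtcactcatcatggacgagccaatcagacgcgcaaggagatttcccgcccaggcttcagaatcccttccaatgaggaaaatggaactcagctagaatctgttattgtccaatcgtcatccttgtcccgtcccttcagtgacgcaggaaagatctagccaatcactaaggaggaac
In Mrpl32 the matches began 87, 86 and 23 bases before the RefSeq start, the first pair overlapping in 1 palindrome, and that start lies 128 bases downstream of the one in GENCODE. In Mrps27 the match began 49 bases before the start. A match describes letters in this window and says nothing about binding.

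Over the promoters of the whole family, motifs of factors known to bind nuclear genes of mitochondrial proteins were counted beside their share in other promoters. RefSeq gave a window of 250 bases before and 50 after the start for 69 members and for 27025 genes, of which 17492 were protein-coding. Only the first listed window of a gene was searched. Its start lay within 500 bases of the GENCODE start for 63 of the 69 members, so for the others the window may miss the GENCODE promoter. NRF1 (GCGCATGCG) matched in 7 members (10.1%) (95% Clopper-Pearson interval 4.18 to 19.8%), in 1.81% of all genes and in 2.41% of protein-coding genes, and the ETS motif (CCGGAAGT) in 11 members (15.9%) (8.24 to 26.7%), in 4% of all and 5.29% of protein-coding genes. YY1 (AAGATGGCG) matched in 8 members (11.6%, 5.14 to 21.6%), against 1.49% of all and 1.94% of protein-coding genes. For ZNF143 and THAP11 (ACTACANTT), with 3 members (4.35%), the interval of 0.906 to 12.2% included the 1.68% of all and 1.98% of protein-coding genes. The E-box (CACGTG), which MYC and other factors bind, matched in 5 members (7.25%), against 7.24% of all and 7.90% of protein-coding genes. At least 1 of the 5 motifs was present in 29 members, 42.0%, against 14.8% of all genes and 17.6% of protein-coding genes. The intervals cover counting error only, and no test was made of these shares. Of the 7 members with NRF1, 1 (Mrpl32) fell and none rose. Of the 11 with the ETS motif, 1 (Mrpl18) rose and 3 (Mrpl43, Mrps26 and Mrps27) fell. Of the 8 with YY1, 1 (Mrps27, with its match after the start) fell and none rose. Of the 5 with the E-box, 1 (Mrpl2) rose and none fell. Of the 3 with ZNF143 and THAP11, 1 (Mrpl50) rose and 1 (Mrpl34) fell. Over all genes tested 17.6% rose and 21.3% fell, and these small counts were not tested.

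Libraries held 32072817 to 46321967 expected counts, and expression is given as CPM, a count scaled to the library total after TMM normalization. Ranbp2 mRNA was measured at 294, 288.7 and 293 CPM in RKO and at 219.6, 249.96 and 248.8 CPM in WT, a log2 difference of 0.28 (SE 0.07, adjusted p = 0.012 by edgeR). A two-sided exact permutation test gave p = 0.1, the smallest 3 against 3 values allow. The gene's count thus goes against the label as far as a deletion of the gene is meant, and a count per gene does not show an edit within the transcript. The RKO libraries are therefore called KO-labelled, and differences are KO-labelled minus WT. Of 10 fibroblast markers all were tested, with summed levels of 26789 to 33707 CPM in KO-labelled and 21322 to 24738 CPM in WT libraries. Of these 10 markers 4 were higher (Fn1 by 1.31, Col3a1 by 0.94, Pdgfra by 0.36 and Lum by 2.23 on the log2 scale) and 3 lower (Col1a1, Pdgfrb and Thy1). Thy1 stood at 0.313 to 0.744 CPM in KO-labelled and 56.8 to 61.1 CPM in WT libraries, and Lum did not reach 1 CPM in any library. The 5 epithelial markers summed to 6.05 to 8.94 CPM in KO-labelled and 2.04 to 2.84 CPM in WT libraries, nearly all from Cdh1, with Krt19 at 0 in the KO-labelled and Krt18 at 0 in the WT libraries. The 4 endothelial markers summed to 0.511 to 1.05 CPM against 0.500 to 0.998 CPM and the 4 leukocyte markers to 1.25 to 2.17 CPM against 1.40 to 1.95 CPM. The part of these markers in the results below was not tested.

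Most mitochondrial ribosomal protein mRNAs stood close to their WT level, and the members that changed did so in both directions. In bulk RNA, fewer cells of a kind and less RNA per cell cannot be told apart. In the KO-labelled libraries 15 members rose, 10 fell and 53 did not pass the threshold, an adjusted p below 0.05 by edgeR's quasi-likelihood test with adjustment over all 15454 genes. The members called in either direction were 32.1% of the family, beside 38.9% of all genes tested. Members that rose were 19.2%, beside 17.6% of all genes, and members that fell were 12.8%, beside 21.3% of all genes. Of the 6927 other genes in the members' range of CPM, 43.8% were called, 18.2% higher and 25.6% lower. The median log2 difference was 0.06 over the members and 0.01 over all genes tested. Without RKO replicate 2 the members that rose numbered 9 in place of 15, and the members that fell still numbered 10.

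Most differences within the family were small. The log2 differences ran from -0.81 to 0.47 with a standard deviation (SD) of 0.26, beside an SD of 0.97 over all genes tested and of 0.57 over the 6927 other genes in the members' range of CPM. The median size of the difference, which extreme genes do not carry, was 0.18 for the members and 0.22 for those other genes. Only Mrpl32, Mrps27 and Mrps12 both passed the threshold and differed at least 1.5-fold. They were 3.85% of members, beside 17.6% of all genes tested and 11.7% of the other genes in that CPM range. The 95% interval lay inside 1.5-fold in either direction for 71 of the 78 members, the exceptions being those 3 and Mrpl15, Mrpl18, Mrpl30 and Mrps9. In 39 members (50%) the values of the groups did not overlap, beside 51.4% of all genes and 55.6% of the other genes in that CPM range. The KO-labelled values lay above in 23 of these members and below in 16.

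The summed expression of the family overlapped between the groups. The members together reached 2429, 2599 and 2500 CPM in the KO-labelled libraries (mean 2509 ± 85.2 SD, n = 3) and 2314, 2436 and 2532 CPM in WT (2427 ± 109 SD, n = 3). WT replicate 3 was above the KO-labelled replicates 1 and 3. The proteins of the cytosolic ribosome, a family of 78 tested genes, had 9 members that rose and 3 that fell (15.4% called), a median log2 difference of 0.05 and no member that changed at least 1.5-fold.

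**Figure D1:**
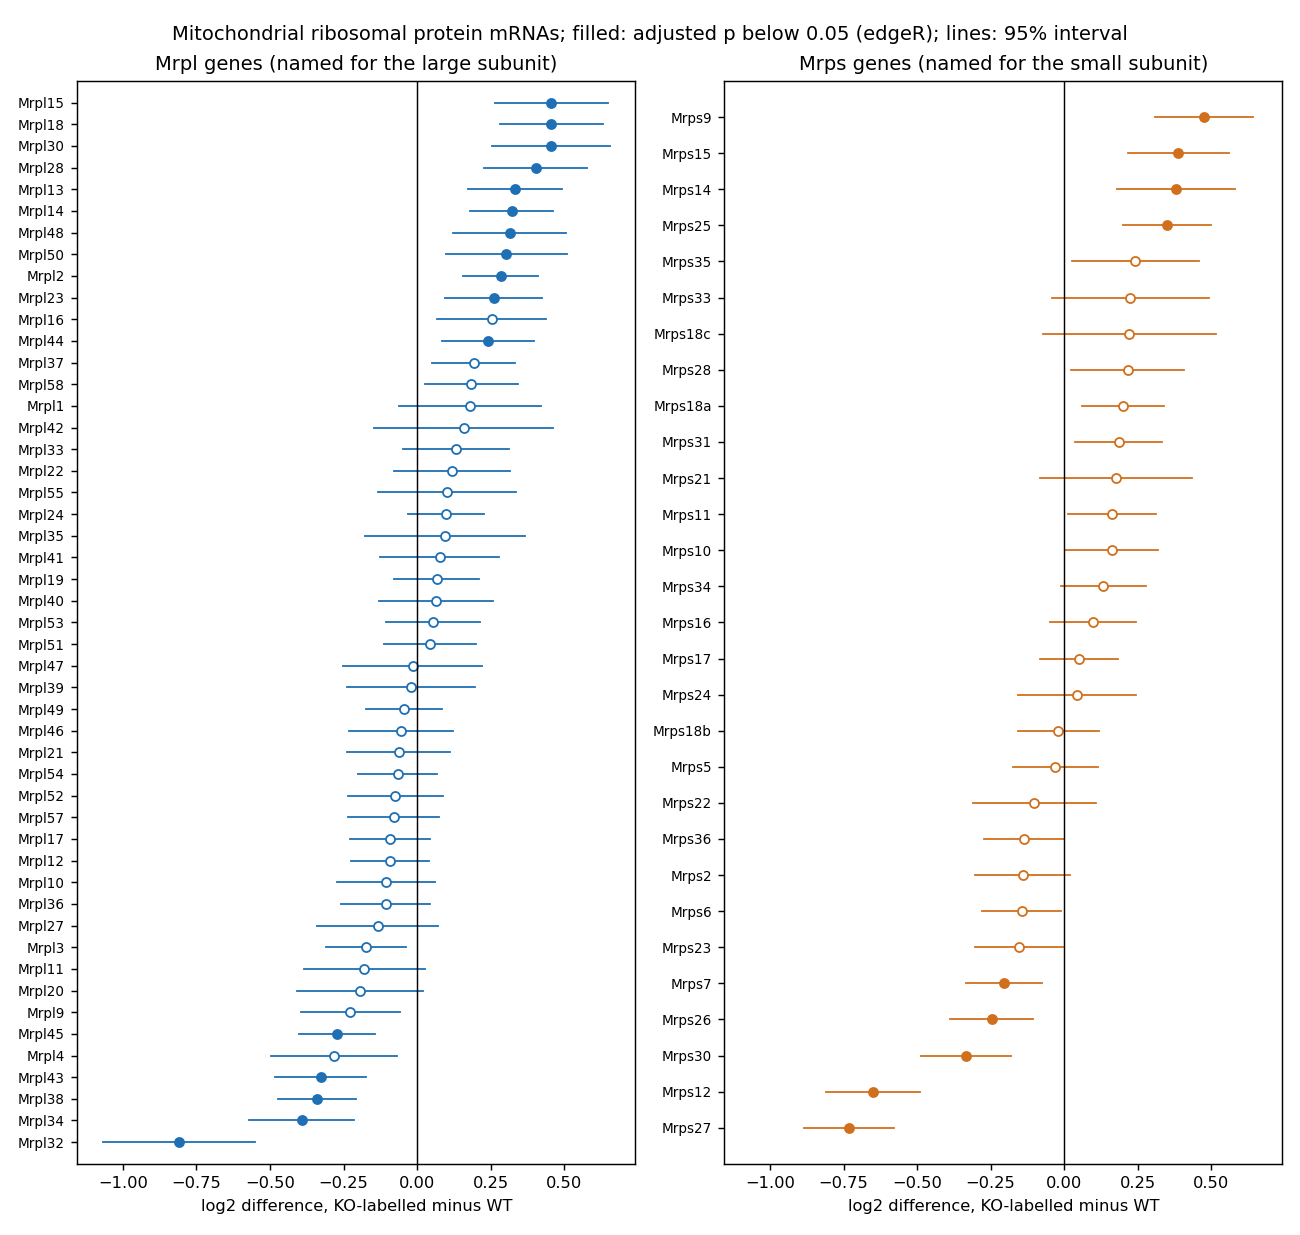
Log2 difference (KO-labelled minus WT) of each member, x axis, with its 95% interval, for the 49 Mrpl genes on the left and the 29 Mrps genes on the right, ordered by difference. Filled points passed an adjusted p of 0.05 by edgeR (15 higher, 10 lower); Mrpl32, Mrps27 and Mrps12 stand apart at the low end.

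Among the 49 genes named for the large subunit 11 rose, 5 fell and 33 did not pass, with a median log2 difference of 0.05. The share called was 32.7%, beside 38.9% of all genes tested. The number that rose was 6 without RKO replicate 2, 7 without RKO replicate 3 and 7 without WT replicate 2. Among the 29 named for the small subunit 4 rose, 5 fell and 20 did not pass (31.0% called), with a median of 0.10. The number that fell was 3 without RKO replicate 1, without RKO replicate 3 or without WT replicate 2. The difference between the subunits was not tested.

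The symbols do not fully match the structure of the ribosome. Mrps30 (mL65) and Mrps18a (mL66) are proteins of the large subunit, and the product of Mrps36 was later assigned to another mitochondrial complex. With members placed by structure, the large subunit had 51 members, 11 higher and 6 lower (33.3% called). The small subunit had 26, 4 higher and 4 lower (30.8% called). By structure the large-subunit members that rose were 6 without RKO replicate 2 and 7 without RKO replicate 3 or WT replicate 2, and the small-subunit members that fell were 2 without RKO replicate 1, RKO replicate 3 or WT replicate 2. Mrps36 itself had a log2 difference of -0.14 (SE 0.07) and did not pass the threshold.

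Mrpl32 had the largest difference of the family. It encodes bL32m, a large-subunit protein that must be cleaved by the m-AAA protease after import before it can join the ribosome. Mrpl32 (ENSMUSG00000015672, chromosome 13, 14608184 to 14613165, minus strand) was at 22.4, 22.8 and 21.3 CPM in KO-labelled and at 31.1, 38.3 and 47.2 CPM in WT libraries. The groups did not overlap, and the WT libraries spread more widely than the KO-labelled ones. Mrpl32 fell by 0.81 on the log2 scale (SE 0.13, adjusted p = 0.0011 by edgeR).

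Mrps27 encodes mS27, a pentatricopeptide repeat protein of the small subunit found only in mitochondria. Mrps27 (ENSMUSG00000041632, chromosome 13, 99344786 to 99415562, plus strand) was at 14.4, 15.5 and 13.8 CPM in KO-labelled and at 23.4, 23.6 and 25.5 CPM in WT libraries. Mrps27 fell by 0.73 (SE 0.08, adjusted p = 7.5e-05 by edgeR), with all 3 KO-labelled values well below the lowest WT value. Of its exon bases, 24.2% are shared with another annotated gene, and without a known strand setting reads of both genes there cannot be told apart.

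Mrps12 encodes uS12m, a protein at the decoding centre of the small subunit. Mrps12 (ENSMUSG00000045948, chromosome 7, 28739641 to 28741820, minus strand) was at 14.6, 13.5 and 13.8 CPM in KO-labelled and at 23.3, 22.3 and 20.1 CPM in WT libraries. Mrps12 fell by 0.65 (SE 0.08, adjusted p = 0.00021 by edgeR), again with no overlap between the groups.

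The other members that fell did so by less than 1.5-fold. Mrpl34, which encodes bL34m, the counterpart of a short bacterial protein, was at 8.66, 9.26 and 8.91 CPM in KO-labelled and 11.1, 12.03 and 12.1 CPM in WT libraries, and fell by 0.39 (SE 0.09). Mrps30 was at 24.8, 28.3 and 28.2 CPM against 33.1, 33.4 and 36.0 CPM in WT, and fell by 0.33 (SE 0.08). In both genes the lowest WT value was above the highest KO-labelled value. Mrpl43, a large-subunit protein found only in mitochondria, was at 24.0, 28.1 and 24.4 CPM against 31.7, 32.8 and 31.6 CPM, and fell by 0.33 (SE 0.08). It shares 33.4% of its exon bases with Twnk, the gene of the mitochondrial DNA helicase on the opposite strand, whose own log2 difference was -0.18 (adjusted p = 0.075 by edgeR). Mrps26 (mS26) fell by 0.25 (SE 0.07) and Mrps7 (uS7m) by 0.20 (SE 0.07), both small-subunit proteins. The call of Mrps7 was lost (adjusted p of 0.055 to 0.10) when RKO replicate 1, 2 or 3 or WT replicate 1 or 2 was left out, and that of Mrps26 (0.056 to 0.10) when RKO replicate 1, RKO replicate 3 or WT replicate 2 was.

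The member that rose most was Mrps9, which encodes uS9m of the small-subunit head. Mrps9 (ENSMUSG00000060679, chromosome 1, 42851233 to 42905683, plus strand) was at 36.9, 36.2 and 31.3 CPM in KO-labelled and at 23.4, 26.1 and 25.7 CPM in WT libraries. The groups did not overlap, and Mrps9 rose by 0.47 (SE 0.08, adjusted p = 0.0018 by edgeR). Mrps14 (uS14m), also of the head, was at 25.3, 31.3 and 31.8 CPM against 20.6, 24.4 and 22.9 CPM, and rose by 0.38 (SE 0.10). The call of Mrps14 was lost without RKO replicate 2 (adjusted p = 0.067), without RKO replicate 3 (0.064) and without WT replicate 1 (0.0503).

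Mrps15, whose product uS15m binds the small-subunit rRNA, was at 61.4, 65.7 and 62.4 CPM in KO-labelled and at 44.8, 45.8 and 54.3 CPM in WT libraries, and rose by 0.39 (SE 0.09). Mrps25 (mS25), a small-subunit protein found only in mitochondria, was at 56.4, 49.8 and 51.7 CPM against 40.9, 39.8 and 43.4 CPM, and rose by 0.35 (SE 0.08). The groups did not overlap in either gene. Mrps25 shares 69.8% of its exon bases with Nr2c2, an orphan nuclear receptor gene on the opposite strand that rose by 0.29 (SE 0.08, adjusted p = 0.015 by edgeR), so the counts of this pair are uncertain.

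In the large subunit, 4 members rose by 0.40 or more. Mrpl15 (uL15m; ENSMUSG00000033845, chromosome 1, 4773206 to 4785739, minus strand) was at 56.3, 51.7 and 48.8 CPM in KO-labelled and at 33.2, 39.3 and 41.8 CPM in WT libraries, and rose by 0.46 (SE 0.10). Mrpl18 (ENSMUSG00000057388, chromosome 17, 12911349 to 12916345, minus strand) was at 71.7, 82.3 and 74.4 CPM against 50.1, 55.7 and 60.8 CPM, and rose by 0.46 (SE 0.09). It encodes uL18m, the counterpart of a bacterial protein that binds the 5S rRNA. Mrpl30 (uL30m) was at 54.8, 68.9 and 67.9 CPM against 43.3, 45.9 and 50.6 CPM, and rose by 0.45 (SE 0.10). Mrpl28 (bL28m) was at 46.1, 49.8 and 48.8 CPM against 38.3, 39.2 and 31.95 CPM, and rose by 0.40 (SE 0.09). In all 4 genes the KO-labelled values were above every WT value.

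The other large-subunit members that rose were Mrpl13 (0.33), Mrpl14 (0.32), Mrpl48 (0.31), Mrpl50 (0.30), Mrpl2 (0.28), Mrpl23 (0.26) and Mrpl44 (0.24), with log2 differences in brackets. Mrpl2 encodes uL2m, which lies by the peptidyl transferase centre, and Mrpl14 encodes uL14m on the face that meets the small subunit. Mrpl50 was the member just inside the threshold, with an adjusted p of 0.044 by edgeR and values of 49.2, 58.4 and 56.3 CPM in KO-labelled against 38.1, 45.7 and 48.9 CPM in WT libraries. The member just outside was Mrps18a, with an adjusted p of 0.0501, a log2 difference of 0.20 and values of 24.5, 25.6 and 26.8 CPM against 22.1, 21.5 and 23.4 CPM. The call of Mrpl23 was lost whichever library was left out (adjusted p of 0.057 to 0.091 by edgeR). Those of Mrpl44 (0.055 to 0.14) and Mrpl48 (0.059 to 0.13) were lost without RKO replicate 2 or 3 or any single WT replicate. That of Mrpl50 (0.092 to 0.15) was lost without RKO replicate 2 or 3 or WT replicate 1 or 2, and that of Mrpl13 (0.052) without RKO replicate 2.

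**Figure D2:**
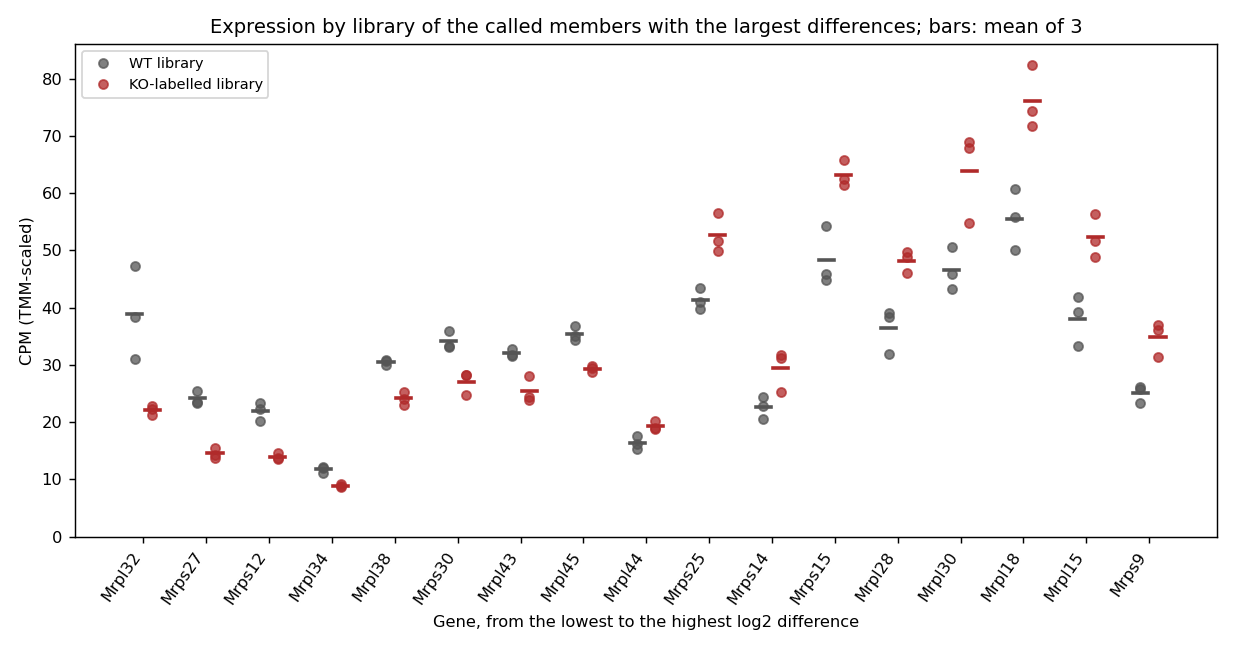
Expression in CPM (y axis, from 0) in each of the 3 WT libraries (grey) and 3 KO-labelled libraries (red) for 17 of the called members, with a bar at the mean of 3, ordered from the lowest to the highest log2 difference. In each gene no KO-labelled value lies within the WT range; for Mrpl32 the WT values run from 31.1 to 47.2 CPM and the KO-labelled ones from 21.3 to 22.8 CPM.

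Members were then grouped by their place in the ribosome. The stalk, where translation factors dock, is formed by Mrpl10, Mrpl11, Mrpl12, Mrpl53 and Mrpl54. None of these 5 passed the threshold (0% called, beside 38.9% of all genes tested), with log2 differences of -0.18 to 0.05. The number with an unadjusted p below 0.05 by edgeR was also 0, as was the number called by DESeq2. Mrpl12, whose product has also been reported to bind the mitochondrial RNA polymerase, was at 49.1, 49.2 and 47.9 CPM in KO-labelled and at 51.6, 54.1 and 50.2 CPM in WT libraries, with a log2 difference of -0.09 (SE 0.07).

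Of 6 members assigned to the exit of the peptide tunnel, 2 rose and 1 fell (50% called, beside 38.9% of all genes tested). Mrpl45, which anchors the ribosome to the inner membrane, was at 29.8, 29.4 and 28.8 CPM in KO-labelled and at 35.1, 34.4 and 36.8 CPM in WT libraries, without overlap, and fell by 0.27 (SE 0.07). Mrpl44, a protein with a ribonuclease III fold, was at 18.7, 20.2 and 19.1 CPM against 16.2, 17.5 and 15.3 CPM, and rose by 0.24 (SE 0.08). Mrpl23 rose by 0.26 (SE 0.08), and Mrpl22 (0.12), Mrpl24 (0.10) and Mrpl47 (-0.01) did not pass.

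Of 5 members assigned to the central protuberance 1 rose and 1 fell (40% called, beside 38.9% of all genes tested). The 5 are not a full list of its proteins, and Mrpl18, which rose by 0.46, was not among them. Mrpl38 (mL38), found only in mitochondria, was at 25.2, 23.0 and 24.1 CPM in KO-labelled and at 30.9, 30.8 and 30.0 CPM in WT libraries, without overlap, and fell by 0.34 (SE 0.07). Mrpl48 rose by 0.31 (SE 0.10), and Mrpl40 (0.07), Mrpl46 (-0.05) and Mrpl58 (0.18) did not pass. Mrpl58 is derived from a peptidyl-tRNA hydrolase.

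Members were also split by the first letter of the protein name, u or b for a bacterial counterpart and m for mitochondria-specific. Of the 46 named u or b, 11 rose (23.9%) and 4 fell (8.70%), with a median log2 difference of 0.10. Of the 31 named m, 4 rose (12.9%) and 6 fell (19.4%), with a median of 0.04. The 31 include Mrps18a (mL66) and Mrps18b (mS40), although these are versions of a bacterial protein. Over all genes tested 17.6% rose and 21.3% fell, and the difference between the classes was not tested. The 4 that rose became 1 without RKO replicate 2, RKO replicate 3 or WT replicate 2 and 2 without WT replicate 1, and the median of these 31 was -0.027 without WT replicate 1. The 3 mammalian versions of bacterial S18 are alternatives at different sites of the ribosome. Mrps18a was at 0.20 (SE 0.07), Mrps18b at -0.02 (SE 0.07) and Mrps18c at 0.22 (SE 0.15) on the log2 scale. None passed with edgeR or with DESeq2's Wald test, and 1 (Mrps18a) had an unadjusted p below 0.05 by edgeR. Mrps18a passed as higher in 5 of the 12 alternative fits, among them those without RKO replicate 1 (adjusted p = 0.040), without WT replicate 3 (0.040) and with library size alone (0.034).

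Levels between genes were compared per kilobase of the union of annotated exons. In WT libraries Mrps6 (59.9 CPM per kb), Mrpl54 (56.3) and Mrpl18 (39.7) were the most abundant members and Mrpl48 (1.92), Mrps35 (1.94) and Mrpl23 (2.73) the least abundant, in CPM per kb. These levels depend on the annotated length, and per kb of the principal transcript Mrpl23 stood at 19.3 and Mrpl48 at 3.66 CPM per kb. By that length the most abundant members were Mrps6 (109 CPM per kb), Mrpl33 (103) and Mrpl42 (88.2), and Mrpl18 was the 9th (45.6). With members placed by symbol, the median WT level of large-subunit members was 1.36 times that of small-subunit members per kb of the union. Per kb of the principal transcript it was 1.16 times. With members placed by structure, the medians of the large and small subunit were 13.1 and 10.8 CPM per kb of the union. Per kb of the principal transcript they were 21.9 and 18.3 CPM, so the size of the ratio depends on the placing and the length used.

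The direction of a member went with the direction of the other genes on its chromosome. Across the 78 members, the log2 difference and the median log2 difference of all other tested genes of the same chromosome had a Pearson r of 0.67 and a Spearman rho of 0.68, given as a description, since the points share 6 libraries and members of a chromosome share 1 median. The signs were the same for 61 of 78 members and for 23 of the 25 that were called. For the 6927 other genes in the members' range of CPM, r with their chromosome's median was 0.25 and rho 0.40, and the signs were the same for 65.0% of them, against 78.2% of the members. Of the called genes in that range 73.0% had the sign of their chromosome, against 92% of the called members. With the median of other genes within 5 Mb in place of the chromosome, r was 0.70 and the signs were the same for 58 of 78 members and for 24 of the 25 called. The 2 called members on the other side from their chromosome were Mrpl23 and Mrpl48, which rose on chromosome 7, where other genes had a median of -0.06.

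On chromosome 1 all 5 members rose, namely Mrps9, Mrpl15, Mrpl30, Mrps14 and Mrpl44, with a median log2 difference of 0.45. The 962 other tested genes of this chromosome had a median of 0.29, and 40.4% of them were higher and 8.94% lower. The number of chromosome 1 members that rose was 3 without RKO replicate 2, without RKO replicate 3 or without WT replicate 1. With the median of the other genes subtracted, the members' median was 0.17. The members spread from position 4773206 to 160202170, and the median of other genes within 5 Mb of each ran from 0.24 to 0.33.

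On chromosome 17, 4 of 8 members rose (Mrpl18, Mrpl28, Mrpl14 and Mrpl2), none fell and 7 were above 0, with a median of 0.24. The 775 other genes had a median of 0.27, and 38.1% of them were higher and 9.55% lower. With that median subtracted, the members stood at -0.033 in median.

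On chromosome 13 all 5 members were below 0 and 3 of them fell (Mrpl32, Mrps27 and Mrps30), with a median of -0.33. The 641 other genes had a median of -0.28, and 43.8% of them were lower and 6.55% higher. With that median subtracted, the members' median was -0.051, while Mrpl32 stood at -0.53 and Mrps27 at -0.45. These 2 members were thus lower than the typical gene of their chromosome by most of their difference.

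On chromosome 11, which holds 11 members, 3 fell (Mrpl38, Mrpl45 and Mrps7) and none rose. The other genes there had a median of -0.07, and 25% of them were lower and 10.8% higher. The number of chromosome 11 members that fell was 2 when any single library other than WT replicate 3 was left out. Without WT replicate 3 it was 3, and 1 member rose. All 7 members on chromosome 6 were above 0 and 1 (Mrps25) rose. The other genes there had a median of 0.17, and 28.6% of them were higher and 12.8% lower. Subtracting the chromosome median left an SD of 0.19 over the 78 members in place of 0.26. The part of these chromosome-wide levels in the members' differences was not tested.

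**Figure D3:**
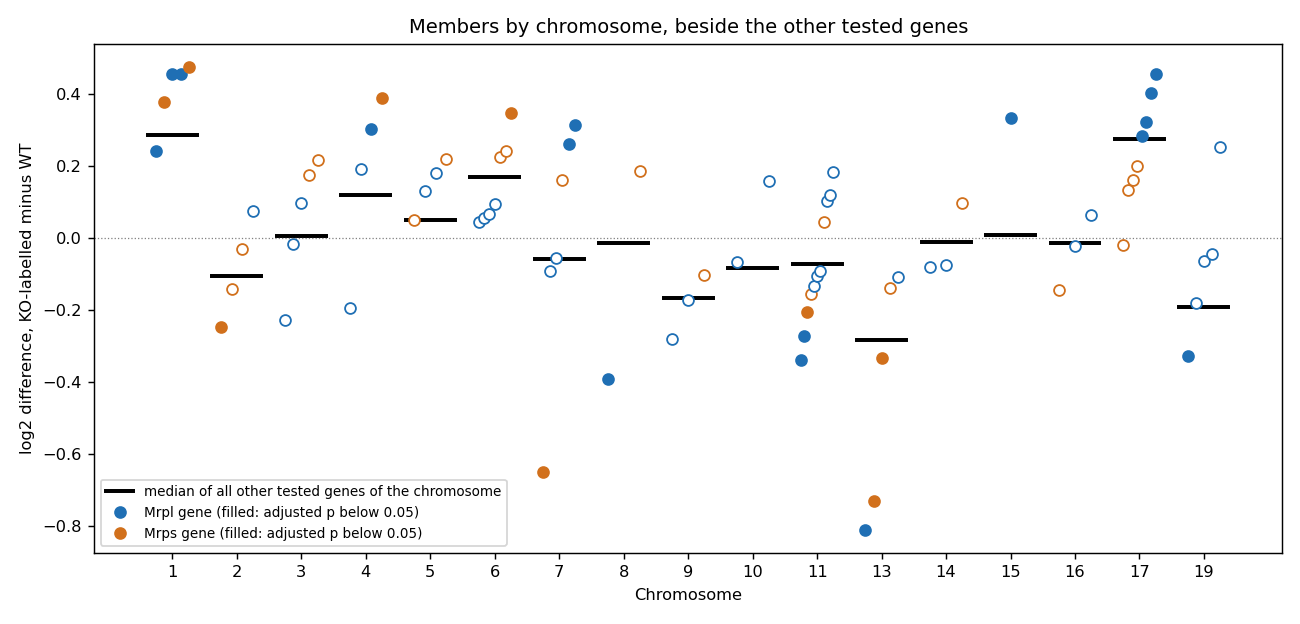
Log2 difference (KO-labelled minus WT, y axis) of each member by chromosome (x axis), blue for Mrpl and orange for Mrps genes, filled where the adjusted p was below 0.05, with a black bar at the median of all other tested genes of that chromosome. Members lie mostly on the same side of 0 as the bar (61 of 78); those of chromosomes 1 and 17 are high and those of chromosome 13 low.

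Many members share a promoter region with a gene transcribed the other way. Of the 78 members, 33 have a protein-coding neighbour on the opposite strand whose start lies within 1000 bases, which makes 32 pairs because Mrpl46 and Mrps11 are each other's neighbour. In 30 pairs both genes were tested, and in 22 of them the differences had the same sign. Both genes were called in 6 pairs, in the same direction in 5. Among the 930 such pairs of other protein-coding genes tested, 67.4% had the same sign, against 73.3% of the 30 pairs with a member. Both genes were called in 14.2% of them, against 20% of the pairs with a member, and 87.9% of those called together went in the same direction. The difference between these shares was not tested.

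All 3 of the members with the largest decreases were among those 5 pairs. Psma2, a subunit of the 20S proteasome that starts 75 bases from Mrpl32, fell by 0.58 (SE 0.09) from 158 ± 16.9 to 106 ± 4.14 CPM (SD, n = 3). Ptcd2, which encodes a mitochondrial pentatricopeptide repeat protein and starts 81 bases from Mrps27, fell by 0.49 (SE 0.09) from 22.9 ± 1.958 to 16.3 ± 1.48 CPM. Sars2, the mitochondrial seryl-tRNA synthetase, starts 172 bases from Mrps12 and fell by 0.55 (SE 0.15) from 11.2 ± 1.31 to 7.66 ± 1.55 CPM. Adjusted p-values of these neighbours were 0.00055, 0.0026 and 0.018 by edgeR. The call of Sars2 was lost without RKO replicate 2 (adjusted p = 0.060), RKO replicate 3 (0.0505), WT replicate 1 (0.057) or WT replicate 2 (0.052).

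The pairs that rose were Mrpl13 with Mtbp, which encodes an MDM2-binding protein (0.33 and 0.40), and Mrpl18 with Tcp1, a subunit of the cytosolic chaperonin (0.46 and 0.30). Mrpl14 rose by 0.32 while Tmem63b, an ion channel gene that starts 583 bases away, fell by 0.27 (SE 0.07, adjusted p = 0.017 by edgeR). Mrpl30 rose by 0.45, whereas Mitd1, which starts 66 bases from it, was at -0.0045 (SE 0.10). Mrpl18 shares 10.1% of its exon bases with Tcp1 and Mrpl14 11.2% with Tmem63b. Exons shared with another gene made up at least 10% of a member in 17 members, of which 5 were called (29.4%). The 61 others had 12 higher and 8 lower (32.8% called), and of all genes tested 38.9% were called.

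**Figure D4:**
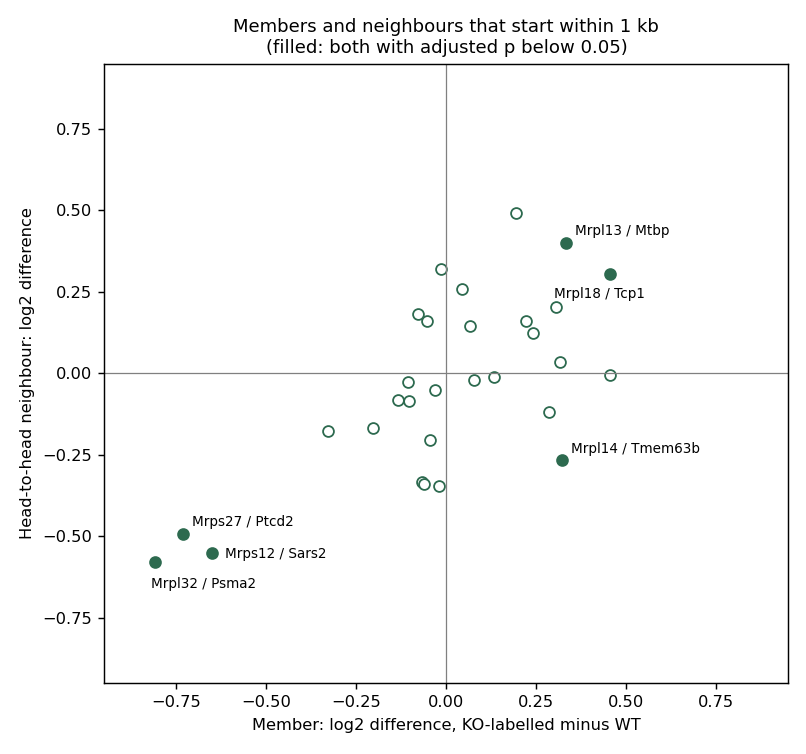
Log2 difference (KO-labelled minus WT) of a member (x axis) and of its head-to-head neighbour (y axis) for the 30 tested pairs whose starts lie within 1 kb. Filled and labelled points are the 6 pairs in which both genes had an adjusted p below 0.05; 3 lie at the lower left, 2 at the upper right and Mrpl14 with Tmem63b at the lower right.

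Of the 5 subunits of the mitochondrial ribosome that have no Mrp symbol, 1 fell and none rose. That is 20% called, beside 38.9% of all genes tested. Their log2 differences ran from -0.31 to 0.18 and had a median of 0.12. Gadd45gip1 (mL64) was at 16.0, 18.6 and 16.1 CPM in KO-labelled and at 20.7, 20.1 and 21.9 CPM in WT libraries, without overlap, and fell by 0.31 (SE 0.08, adjusted p = 0.017 by edgeR). That call was lost without RKO replicate 1 (adjusted p = 0.05002) or RKO replicate 3 (0.066). Dap3 (0.12), Ptcd3 (0.17), Chchd1 (0.18) and Aurkaip1 (-0.04) did not pass.

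Genes that process and modify the mitochondrial rRNAs and other transcripts numbered 22 tested, of which 3 rose and 3 fell. The share called was 27.3%, beside 38.9% of all genes tested, and the median log2 difference was 0.05. Lrpprc, which keeps mitochondrial mRNAs stable, was at 133, 132 and 130.3 CPM in KO-labelled and at 94.1, 94.4 and 93.0 CPM in WT libraries, and rose by 0.49 (SE 0.06). Tfb1m, the methyltransferase of the small-subunit rRNA, was at 13.3, 13.1 and 12.1 CPM against 8.60, 8.85 and 8.65 CPM, and rose by 0.56 (SE 0.09). Both lie on chromosome 17 and showed no overlap. Nsun4, another rRNA methyltransferase, rose by 0.29 (SE 0.08). Rpusd4, a pseudouridine synthase, fell by 0.30 (SE 0.09), and Mterf3 and Mterf4 fell by 0.26 and 0.23. Mterf3 lies on chromosome 13, but Mterf4 lies on chromosome 1, where tested genes outside the family had a median of 0.29. The number that fell was 0 without RKO replicate 2, RKO replicate 3 or WT replicate 2 and 1 without WT replicate 1 or WT replicate 3, and it was 0 when libraries were scaled by library size alone. The number that rose was 2 without RKO replicate 2 or WT replicate 2.

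Of 18 assembly factors of the mitochondrial ribosome 1 rose and 2 fell, with a median of -0.05. The share called was 16.7%, beside 38.9% of all genes tested. Gtpbp10, a GTPase of large-subunit maturation, was at 15.5, 14.01 and 15.1 CPM in KO-labelled and at 18.4, 21.7 and 25.4 CPM in WT libraries, and fell by 0.55 (SE 0.11). Dhx30, an RNA helicase, was at 34.4, 41.1 and 40.0 CPM against 60.9, 54.0 and 50.1 CPM, and fell by 0.52 (SE 0.10). Fastkd2 rose by 0.39 (SE 0.09). The groups did not overlap in any of the 3 genes. Gtpbp6, with a log2 difference of -0.38, passed without WT replicate 3 and made that count 3.

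The list of mitochondrial translation factors also held genes of related steps, such as the membrane insertase Oxa1l. Of its 14 tested genes 2 rose (Guf1 and Mtif2) and 3 fell (Gfm2, Mtrf1l and Oxa1l), with a median of -0.08. The share called was 35.7%, beside 38.9% of all genes tested. Gfm2, which recycles ribosomes, fell by 0.24 (SE 0.07), and Mtrf1l, a release factor, by 0.39 (SE 0.12). Guf1, the counterpart of bacterial LepA, rose by 0.30 (SE 0.09). Mtif2, an initiation factor, rose by 0.25 (SE 0.08) on chromosome 11, where tested genes outside the family had a median of -0.07. None of these 5 passed without RKO replicate 2. The number that rose was 0 without RKO replicate 1 or WT replicate 1, 1 without RKO replicate 3 or WT replicate 2, and 3 without WT replicate 3. The number that fell was 1 without RKO replicate 3 or WT replicate 1, and 1 with library size alone.

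The list of mitochondrial aminoacyl-tRNA synthetases held 20 genes, among them the amidotransferase subunits Qrsl1, Gatb and Gatc, which did not pass. Of the 20 genes 4 rose and 3 fell (35% called, beside 38.9% of all genes tested), with a median of 0.12. Fars2, on chromosome 13, was at 6.60, 6.57 and 5.59 CPM in KO-labelled and at 11.5, 10.0 and 8.10 CPM in WT libraries, and fell by 0.66 (SE 0.14). Mars2 (0.37), on chromosome 1, rose. Hars2 (0.30) and Rars2 (0.27) rose as well, and Sars2 and Tars2 (-0.25) fell. The number that rose was 2 without RKO replicate 1 and 1 without RKO replicate 2, and the number that fell was 1 without RKO replicate 2, RKO replicate 3, WT replicate 1 or WT replicate 2.

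Among 11 regulators of mitochondrial biogenesis 2 rose and 3 fell (45.5% called, beside 38.9% of all genes tested), with a median of 0.01. Of these 5 called genes, 4 had larger differences than any ribosomal protein. Ppargc1a, the coactivator PGC-1alpha, was at 6.78, 5.72 and 6.86 CPM in KO-labelled and at 0.337, 0.174 and 0.309 CPM in WT libraries, and rose by 4.56 on the log2 scale (SE 0.24). Its relative Ppargc1b was at 1.62, 1.62 and 2.08 CPM against 0.385, 0.370 and 0.238 CPM, and rose by 2.40 (SE 0.28). The groups were far apart in both genes, and both mRNAs were scarce in WT.

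Myc was at 39.4, 35.6 and 37.2 CPM in KO-labelled and at 67.6, 71.9 and 76.7 CPM in WT libraries, and fell by 0.95 (SE 0.08). Esrra, the nuclear receptor that works with PGC-1alpha, was at 11.2, 9.91 and 10.2 CPM against 19.6, 20.9 and 17.2 CPM, and fell by 0.88 (SE 0.10). Pprc1, the third coactivator of the PGC-1 family, fell by 0.40 (SE 0.07). Of the factors whose motifs were searched, Nrf1 at -0.17 (SE 0.07), Gabpa at 0.15 (SE 0.08) and Yy1 at 0.03 did not pass with edgeR or DESeq2, and 0 of these 3 had an unadjusted p below 0.05 by edgeR. The largest difference among the 78 ribosomal proteins, -0.81, was smaller in size than those of Ppargc1a, Ppargc1b, Myc and Esrra.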

How the data were processed

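PolyA RNA of 6 libraries (3 RKO, 3 WT) was analysed. The authors deposited expected counts per gene; RSEM, cutadapt and build GRCm38 are named in the submitters' processing notes, and their versions, the aligner and any strand setting were not given in the sources used here. Names and positions came from GENCODE M21 (GRCm38), which matched 55230 of 55471 identifiers.

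Expected counts were rounded. Genes passed filterByExpr (minimum count 10, minimum total 15), were scaled by TMM and compared by group alone with the two-sided quasi-likelihood F test of edgeR (version 4.0.16, under R 4.3.3). Benjamini-Hochberg adjustment ran over all genes tested. SE comes from the F statistic, and 95% intervals use the normal quantile, which makes them approximate and narrower than the F test implies. The common biological coefficient of variation was 11.5%. In simulated counts for this comparison (15180 genes), 67.2% of 67 genes changed 1.5-fold, 77.8% of 63 changed 2-fold and 93.8% of 64 changed 4-fold were called. Of the 169 calls, 8.88% were false. The data gave 6011 calls, so the adjusted threshold was stricter in the simulation. These shares do not measure the sensitivity of the test in the data.

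Members and lists were chosen with earlier results of these data known. Library values are given for the 8 called members lowest and the 8 highest in log2 difference among those reaching 10 CPM in the higher group and for those of the chromosome with most calls. The 3 most and least abundant members, those next to the threshold, the Mrps18 genes and up to 4 genes per list by adjusted p are also named; further called list genes (Mterf3, Mterf4, Oxa1l, Hars2, Rars2, Tars2) and neighbours were named after their values were seen. Of the list symbols, 4 were not matched. Some genes that the naming rule picks are not reported here. Promoter windows are from RefSeq, GRCm38.p6. Alternatives were DESeq2 (1.42.0) size factors and Wald test, library size alone, no filter, 1 CPM in all 3 libraries of a group, a replicate block, each library left out, other gene lengths and subtraction of chromosome medians. Principal-transcript lengths, the 5 Mb window and leaving out members with shared exons or Mrps36 were added after the data were seen.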

Additional observations from a re-analysis of the deposited data

How the results depend on the processing

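Of the 25 members called, 17 passed the threshold in the same direction in all 12 alternative fits, and no result named changed direction once called. Leaving out each library in turn gave 9 to 17 members higher, 6 to 11 large-subunit members higher and 3 to 5 small-subunit members lower. It also gave 3 to 5 chromosome 1 members higher and a median of -0.027 to 0.12 for the 31 proteins named m. Subtracting the chromosome median moved the members' median to 0.17 on chromosome 1, -0.051 on chromosome 13 and -0.033 on chromosome 17. The ratio of the median level per length of large to small subunit, both by symbol, was 1.36, and 1.16 with the principal transcript. With members placed by structure, the medians per kb of the union were 13.1 and 10.8 CPM. The samples were not treated as paired by replicate number, since no shared culture is described. Deviations of same-numbered libraries correlated at -0.08 to 0.02 and those of other-numbered libraries at -0.095 to 0.15. With 3 libraries per group these values cannot show whether cultures were shared. With the replicate number as a block, small-subunit members called lower numbered 3 and all genes 2213 higher and 2781 lower. In that block fit the rRNA processing list had 3 higher and 0 lower and the translation factor list 0 higher and 1 lower. The causes of these shifts were not tested. Of the 27 called genes of the other lists, 11 passed in all 12 fits. Of simulated 1.5-fold changes 67.2% were called, but with 169 calls in place of the 6011 in the data. That share is therefore not the sensitivity of the test here. Smaller differences that missed the threshold are not shown to be absent.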
